A study of Mus musculus with 9 samples.

Results

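The Wnt ligands of the embryonic kidney were followed in RNA from whole mouse kidneys at E15.5. Their rows were found by gene name, *Wnt2b*, *Wnt4*, *Wnt5a*, *Wnt5b*, *Wnt6*, *Wnt7a*, *Wnt7b*, *Wnt9a*, *Wnt9b* and *Wnt11*, with no measured value in the choice. These are 10 of the 24138 loci measured, and 10 of the 19 Wnt genes among them. Bulk RNA-seq was performed on 3 genotypes with 3 libraries of each, numbered 1 to 3. *Foxd1GC/+;Ntn1fl/fl* kidneys (MUT) carried the *Foxd1GC* allele, a GFP-Cre insertion that removes 1 copy of *Foxd1*, and 2 floxed alleles of *Ntn1*, the gene of the secreted guidance cue netrin 1. *Foxd1GC/+;Ntn1fl/+* kidneys (HET) carried the same Cre with 1 floxed and 1 intact allele, and *Ntn1fl/fl* kidneys (WT) carried the floxed alleles and no Cre. Cre from *Foxd1* acts in the stromal progenitors and their descendants, so the ureteric and nephron lineages, which make most of these ligands, are not its target. The kidneys came from 3 crosses on a C57Bl6/J background and were of mixed sex.

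Wnts are secreted, lipid-modified glycoproteins that bind Frizzled receptors. With the co-receptors *Lrp5* and *Lrp6* they stabilise β-catenin and switch on Tcf/Lef target genes, and through *Ror2*, *Ryk* or *Ptk7* they act on planar cell polarity and cell movement. In the kidney, *Wnt9b* from the ureteric bud epithelium induces nephron progenitors, *Wnt4* in the induced cells drives their conversion into epithelium, *Wnt11* marks the branching ureteric tips, *Wnt7b* in the collecting duct stalks organises the medulla, and *Wnt5a* is made in mesenchyme and signals mainly without β-catenin.

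The promoters of the ligands give the sequence context of these levels. RefSeq entries on GRCm38.p6 matched 8 of the 10 ligands, with 11 start sites in all. *Wnt5a* and *Wnt7b* had no entry. The 250 bases before a start are printed for *Wnt4* and *Wnt11*, the most abundant ligands, for *Wnt9b*, the inducer from the bud, and for the third start of *Wnt5b*. The last of these and the first start of *Wnt11* were the only windows of the ligands that hold a Tcf/Lef-type motif. Each runs 5′ to 3′ on the gene's own strand and ends at the base before the start, and capitals mark ATCAAAG on either strand and TATAAA on the gene's strand.
*Wnt4*, chr4:137277385-137277634, plus strand: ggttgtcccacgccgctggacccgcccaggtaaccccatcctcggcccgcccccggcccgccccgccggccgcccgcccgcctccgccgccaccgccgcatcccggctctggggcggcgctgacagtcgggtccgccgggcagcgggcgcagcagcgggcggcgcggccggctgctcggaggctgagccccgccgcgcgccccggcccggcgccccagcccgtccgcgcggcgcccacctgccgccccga
*Wnt11*, start 1, chr7:98834862-98835111, plus strand: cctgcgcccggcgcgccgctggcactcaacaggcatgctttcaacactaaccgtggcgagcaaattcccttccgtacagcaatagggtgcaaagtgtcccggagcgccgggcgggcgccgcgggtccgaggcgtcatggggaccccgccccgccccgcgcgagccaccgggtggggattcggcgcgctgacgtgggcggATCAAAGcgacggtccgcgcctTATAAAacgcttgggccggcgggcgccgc
*Wnt9b*, chr11:103749822-103750071, minus strand: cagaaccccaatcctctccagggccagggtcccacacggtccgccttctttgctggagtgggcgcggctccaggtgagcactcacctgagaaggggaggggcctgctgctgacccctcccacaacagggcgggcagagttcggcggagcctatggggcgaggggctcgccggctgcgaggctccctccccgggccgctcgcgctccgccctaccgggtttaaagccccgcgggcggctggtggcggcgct
*Wnt5b*, start 3, chr6:119449387-119449636, minus strand: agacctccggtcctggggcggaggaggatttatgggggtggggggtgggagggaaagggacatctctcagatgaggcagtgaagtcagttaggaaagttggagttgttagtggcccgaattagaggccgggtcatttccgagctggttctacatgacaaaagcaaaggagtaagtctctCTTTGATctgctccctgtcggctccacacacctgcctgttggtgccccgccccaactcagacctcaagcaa

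The windows were searched for ATCAAAG and TTCAAAG, the letters bound by Tcf/Lef factors, on both strands, and for the TATA box TATAAA on the gene's strand. *Wnt11* held ATCAAAG beginning 51 bases before its first start and TATAAA 29 bases before it. *Wnt5b* held ATCAAAG on the opposite strand, seen as CTTTGAT, 71 bases before the third start. The windows of *Wnt4* and *Wnt9b* held none of the 3 motifs. Of all 32851 promoter windows of this length, 7.48% held ATCAAAG or TTCAAAG and 7.59% held TATAAA, so 2 of 11 windows is a description only. The windows of the ligands were rich in G and C, with a median of 75.2% against 52.4% over all windows, and *Wnt4* reached 85.2%.

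Abundance separated the ligands into 3 tiers. Levels are given in FPKM, fragments per kilobase of transcript scaled to the library, which the authors computed and which can be set side by side between genes because length is divided out. *Wnt4* (mean 31.3 FPKM over the 9 libraries), *Wnt11* (22.1), *Wnt5a* (16.6), *Wnt7b* (8.90), *Wnt5b* (7.28) and *Wnt9b* (6.31) lay above 5 FPKM in every genotype's mean. *Wnt6* (1.36), *Wnt9a* (0.920) and *Wnt2b* (0.525) lay near 1 FPKM, and *Wnt7a* (0.0653) near 0. The ranges over the 9 libraries did not overlap at 2 steps of this order, between *Wnt9b* and *Wnt6* and between *Wnt2b* and *Wnt7a*. At the other 7 steps the ranges overlapped. At 5 of these 7 the order still held within each of the 9 libraries, *Wnt4* above *Wnt11*, *Wnt5a* above *Wnt7b* (ratio of means 1.87), *Wnt7b* above *Wnt5b*, *Wnt5b* above *Wnt9b* and *Wnt9a* above *Wnt2b* (ratio 1.75). *Wnt5a* was below *Wnt11* in 8 of 9, the exception being MUT-2, and *Wnt9a* was below *Wnt6* in 7 of 9.

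**Figure D1:**
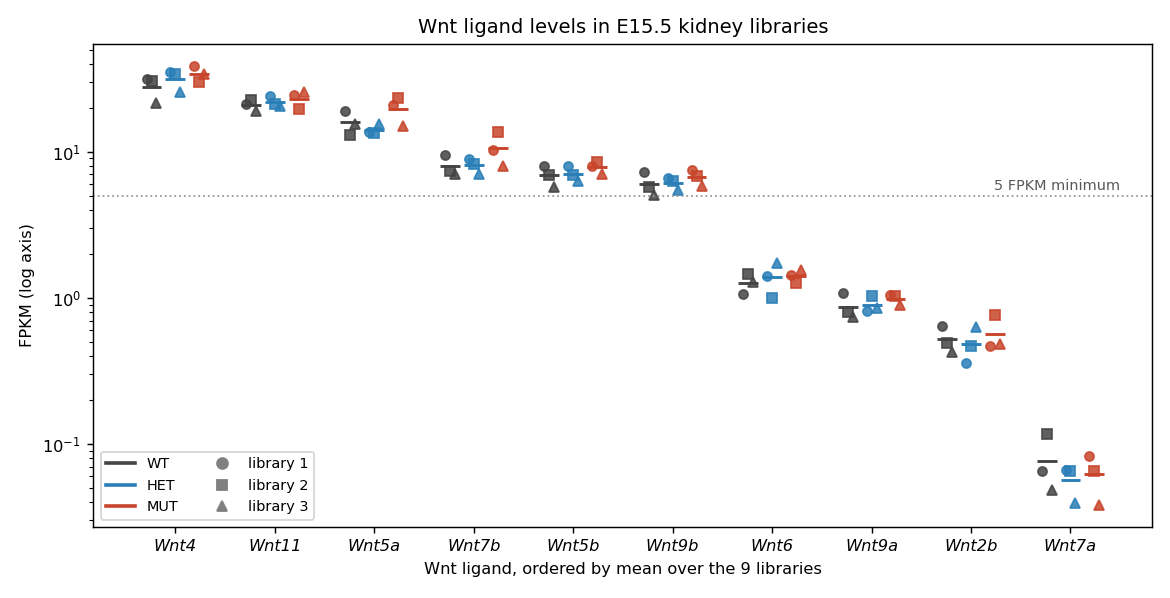
FPKM of the 10 ligands on a log axis, with points for the libraries (colour for genotype, shape for library number) and a line for each genotype's mean. The 6 ligands from *Wnt4* to *Wnt9b* sit above the dotted line at 5 FPKM in all 3 genotypes, and the points of the genotypes overlap for each of the 10 ligands.

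In whole kidney, fewer cells that make a ligand and less RNA per cell cannot be told apart. The 10 ligands together summed to 88.5 ± 11.5 FPKM in WT, 91.9 ± 7.74 in HET and 105 ± 7.14 in MUT (mean ± SD, n = 3 each). The sums ran from 76.8 to 99.8 in WT, from 83.8 to 99.2 in HET and from 98.4 to 113 in MUT, and the lowest MUT library lay below the highest of either other genotype. *Wnt4*, *Wnt11* and *Wnt5a* made up 69.4 to 75.8% of the sum in the 9 libraries, with the lowest share in MUT-2.

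*Wnt4*, needed for progenitors to become epithelium, lies on chromosome 4 from 137277635 to 137299501 (mm10, as for all positions of loci here). Taking the libraries in the order of their numbers, here and below, WT had 31.7, 30.4 and 21.6 FPKM, HET 35.3, 33.9 and 25.7, and MUT 38.7, 30.1 and 34.2. The third WT and HET libraries were the lowest, and the ranges of all 3 genotypes overlapped.

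*Wnt9b*, the inducer from the ureteric bud, lies on chromosome 11 from 103727363 to 103749821. It measured 7.26, 5.78 and 5.08 FPKM in the WT libraries, 6.64, 6.30 and 5.48 in HET and 7.55, 6.84 and 5.83 in MUT. The lowest MUT library was below the highest of WT and of HET, so the genotypes overlapped. *Wnt11*, the ligand of the ureteric tips, lies on chromosome 7 from 98835112 to 98854747. It stood at 21.4, 22.7 and 19.1 FPKM in WT, 24.1, 21.4 and 20.6 in HET, and 24.4, 19.5 and 25.5 in MUT. It varied least of the 10 ligands, with a coefficient of variation of 10.1% over the 9 libraries, and both its highest library and its second lowest were MUT. *Wnt7b*, the ligand of the collecting duct stalks, lies on chromosome 15 from 85535437 to 85593708. WT libraries gave 9.44, 7.41 and 7.09 FPKM, HET libraries 8.99, 8.30 and 6.99, and MUT libraries 10.2, 13.7 and 8.001. MUT-1 and MUT-2 were above every other library, and MUT-3 lay inside the range of the other genotypes.

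*Wnt5a*, the mesenchymal ligand, lies on chromosome 14 from 28505473 to 28525515. It reached 19.2, 13.0 and 15.6 FPKM in WT, 13.6, 13.4 and 15.47 in HET, and 20.9, 23.5 and 14.9 in MUT. MUT-1 and MUT-2 were again the highest, MUT-3 was below HET-3, and WT-1 came close to MUT-1. *Wnt5b*, its closest paralog, lies on chromosome 6 from 119432531 to 119544347. It gave 8.04, 6.97 and 5.77 FPKM in WT, 7.94, 6.96 and 6.33 in HET, and 7.94, 8.54 and 7.03 in MUT, and the 3 genotypes overlapped.

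**Figure D2:**
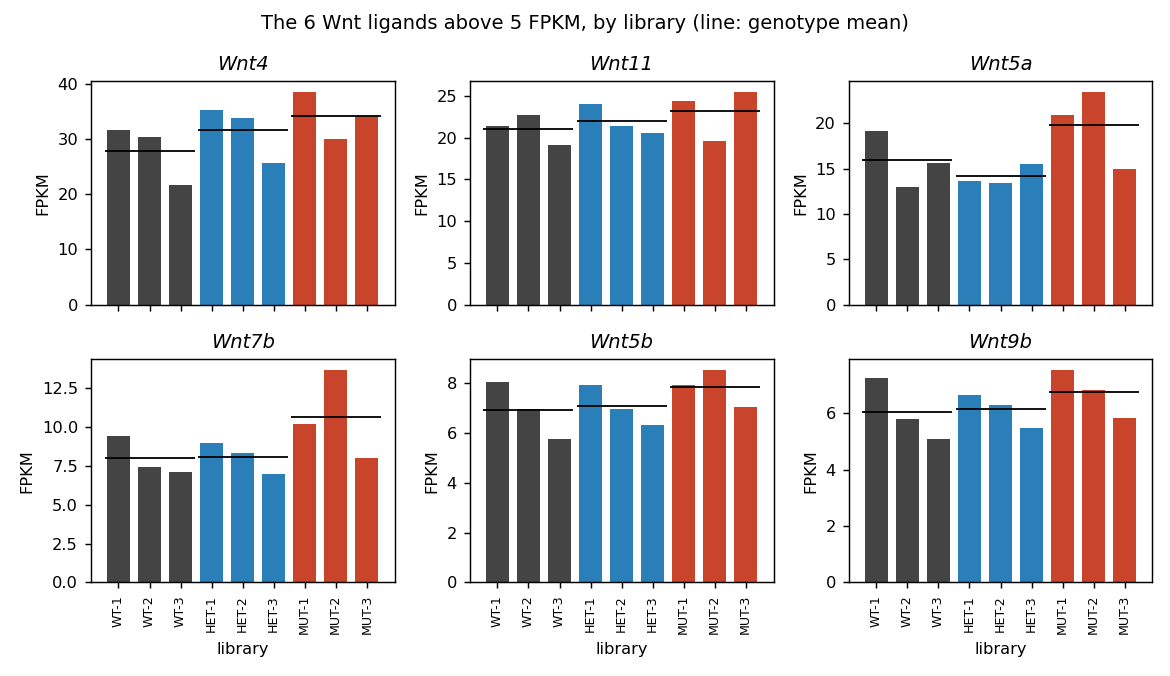
FPKM of the 6 ligands above 5 FPKM in each of the 9 libraries, as bars from 0 coloured by genotype, with a line for each genotype's mean. *Wnt5a* and *Wnt7b* share their 2 highest libraries, MUT-1 and MUT-2, while *Wnt11* is lower in MUT-2 (19.5 FPKM) than in the other MUT libraries.

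The 4 less abundant ligands varied within narrow absolute limits. *Wnt6*, of the ureteric bud epithelium, ranged from 1.00 FPKM in HET-2 to 1.75 in HET-3. *Wnt9a* ranged from 0.741 to 1.08, *Wnt2b*, a mesenchymal ligand, from 0.357 in HET-1 to 0.765 in MUT-2, and *Wnt7a* from 0.0383 to 0.117. The widest spread of *Wnt6* was thus between libraries of 1 genotype, and the genotypes overlapped for all 4.

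The comparison of MUT with HET, both of which carry Cre and 1 copy of *Foxd1*, asks what losing the second *Ntn1* allele from the stroma changes. *Wnt5a* and *Wnt7b* showed the largest ratios of means, 1.40 and 1.31, from 19.8 ± 4.39 against 14.2 ± 1.14 FPKM and 10.6 ± 2.87 against 8.09 ± 1.01 (mean ± SD, n = 3 each). No ligand passed the test. With limma on log2(FPKM + 1), a scale that understates the change of low genes, 0 of the 10 ligands had an adjusted p under 0.05, as for 0 of the 10081 loci tested (0% called; 636 had an unadjusted p under 0.05). *Wnt5a* was the only ligand with an unadjusted p under 0.05 in this fit, in a direction in which 3.68% of all loci passed that mark. Its log2 difference was 0.43 (SE 0.15, 95% interval 0.10 to 0.76, adjusted p = 0.738 by limma with Benjamini-Hochberg adjustment). The exact two-sided permutation test of its FPKM gave p = 0.2, where 3 libraries against 3 cannot go below 0.1. *Wnt7b* differed by 0.33 (SE 0.17, interval -0.04 to 0.71, adjusted p = 0.738 by limma, exact permutation p = 0.3).

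Without MUT-2, the library highest in both, the log2 difference was 0.30 for *Wnt5a* and 0.15 for *Wnt7b*, and without MUT-3 it was 0.61 and 0.50. The adjusted p without MUT-3 was 0.181 and 0.202 by limma. The size of both differences thus depended on which MUT library was in the fit.

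The other ligands above 5 FPKM differed less. The log2 difference was 0.13 for *Wnt5b* (interval -0.15 to 0.41), 0.12 for *Wnt4* (-0.20 to 0.43), 0.11 for *Wnt9b* (-0.19 to 0.42) and 0.07 for *Wnt11* (-0.20 to 0.33), with adjusted p of 0.797 to 0.899 by limma. Each interval spans 0, and that of *Wnt4* runs from 0.873-fold to 1.35-fold of (FPKM + 1), so an equal level was not shown. For the 4 ligands below 5 FPKM, read from the same fit with no FPKM minimum, it was 0.08 for *Wnt2b*, 0.07 for *Wnt9a*, 0.03 for *Wnt6* and 0.01 for *Wnt7a*.

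All 10 ligands, the 6 that passed the FPKM minimum and the 4 that did not, had a fitted difference above 0 in MUT, while 45.9% of the loci above the minimum did and 44.8% of the 19222 loci of the fit with no minimum. For the 6 above the minimum the median was 0.13, against -0.02 for all loci. The count was 9 of 10 without HET-2, where *Wnt6* turned (-0.09), 9 of 10 without MUT-1 or MUT-2, and 8 of 10 without HET-3 or without MUT-3. No ligand, 0 of 10, had all MUT libraries above or all below the HET libraries. Of the loci above the minimum, 5.19% had all above and 4.5% all below, so for 10 genes this count is a description only. Transcripts of 9 ligands held more G and C than the upper quartile of the loci tested (54.6%), from 55.4% in *Wnt7a* to 61.3% in *Wnt6*, and *Wnt5a*, with the largest difference, held 46.7%. When GC content was corrected for within each library, all 10 differences stayed above 0 and that of *Wnt5a* was 0.45.

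**Figure D3:**
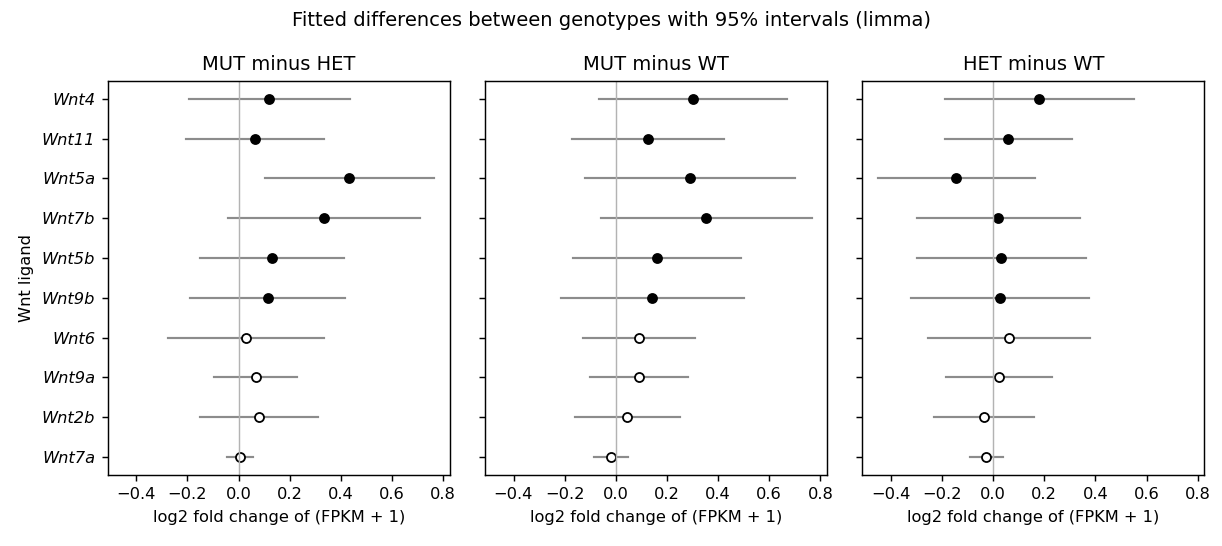
Fitted log2 differences in (FPKM + 1) with 95% intervals for each ligand in the 3 comparisons, filled for ligands above 5 FPKM and open for the others. Only the interval of *Wnt5a* in MUT minus HET (0.10 to 0.76) lies clear of 0, and its adjusted p is 0.738 by limma. In HET minus WT the points of *Wnt11*, *Wnt7b*, *Wnt5b*, *Wnt9b* and *Wnt9a* fall on the other side of 0 after GC correction.

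The comparison of MUT with WT adds the Cre allele to the loss of *Ntn1*. Again 0 of the 10 ligands and 0 of 10096 loci passed the adjusted threshold of limma (0% called; 65 loci, 0.644%, had an unadjusted p under 0.05, none of them a ligand). All MUT libraries were above all WT libraries for 1.32% of loci and below for 1.34%, and for 0 of the 10 ligands. *Wnt7b* differed by a log2 value of 0.35 (SE 0.18, interval -0.06 to 0.77), *Wnt4* by 0.30 (SE 0.17, interval -0.07 to 0.67) and *Wnt5a* by 0.29 (SE 0.18, interval -0.12 to 0.70), each with an adjusted p of 1.000 by limma. *Wnt5b* (0.16), *Wnt9b* (0.14) and *Wnt11* (0.13) differed less, and the exact permutation p of these 6 ligands ran from 0.2 to 0.4. Fitted differences were above 0 for 9 of 10 ligands, with *Wnt7a* at -0.02, and for 48.7% of the loci above the minimum and 47.4% of loci with no minimum. The count stayed at 9 of 10 under every alternative that kept the libraries and all 10 ligands.

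HET and WT differ in the Cre allele, 1 copy of *Foxd1* and 1 allele of *Ntn1*, which cannot be told apart. *Wnt5a* was lower in HET by the fit (-0.14, SE 0.14) and *Wnt4* higher (0.18, SE 0.17), and neither passed the test (adjusted p = 0.998 for both by limma, exact permutation p of 0.6 and 0.5). The other ligands above 5 FPKM had values of 0.02 to 0.06, which lay below 0 once GC content was corrected for. Of all 10, 7 were above 0, and 2 after that correction, where 52.4% of the loci above the minimum, and 52.2% with no minimum, were above 0 uncorrected. Limma called 0 of 10105 loci (0% called; 108, or 1.07%, had an unadjusted p under 0.05, none of them a ligand). HET lay wholly above WT for 2.15% of loci and wholly below for 1.06%, and for 0 of the 10 ligands. MUT, HET and WT libraries are shared between these comparisons, so their values do not support each other.

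The libraries differed in ways that touch these values. Nephron progenitor markers of the kidney, such as *Six2*, summed to 268 to 416 FPKM and were present in all 9. The targeted gene, *Ntn1*, had means of 24.3 FPKM in WT, 13.6 in HET and 12.8 in MUT, with every WT library above all 6 others and with overlap between HET and MUT. *Foxd1* measured 21.1 FPKM in HET, 23.9 in MUT and 31.0 in WT, with every WT library above all others. Every MUT library also lay above every HET library, as for 5.19% of loci, though both genotypes carry 1 copy (adjusted p = 0.738 by limma). HET-2 stood apart by liver markers, whose 8 genes summed to 759 FPKM there and to 28.7 to 53.9 in the other 8 libraries. *Afp*, the fetal albumin relative, was at 217 FPKM in HET-2. Globin and other red cell markers were also highest in HET-2 (1983 against 1140 to 1507), and adrenal and gonad markers were at 5.9 FPKM or less in all libraries. Without HET-2 the log2 differences of *Wnt5a* and *Wnt7b* from HET were 0.40 and 0.35.

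*Wnt11* and the markers of the ureteric tip were low in the same libraries. The 9 tip markers, led by *Spry1* and *Gfra1* and without *Wnt11*, summed to 143 FPKM in WT-3 and 150 in MUT-2, and to 176 to 215 in the rest. WT-3 was among the 2 lowest libraries for 8 of the 9 markers and MUT-2 for 7 of the 9. *Wnt11* was likewise lowest in WT-3 (19.1) and next lowest in MUT-2 (19.5). Low values in WT-3 were not particular to the tip. That library was also lowest for *Wnt4*, *Wnt9b*, *Wnt5b* and *Wnt9a*. The sums of the receptor, nephron progenitor, early nephron and cortical stroma lists were lowest there too. For the mesenchymal ligand *Wnt5a* the markers of its tissue were counted by their highest library. That rule is unlike the one for the tip, so the counts are not comparable. The 9 markers of medullary stroma and ureter mesenchyme summed to 836 FPKM in MUT-2, the highest library for *Wnt5a*, *Wnt7b*, *Wnt5b* and *Wnt2b*, and to 674 to 735 in the other libraries. Most of that excess was 1 gene, *Cdkn1c*, a cell cycle inhibitor named here after its values were seen, at 584 FPKM in MUT-2 and 438 to 500 in the others. Without it the sum was 252 FPKM in MUT-2 and 211 to 244 in the others, and 2 of the 9 markers were highest in MUT-2. *Alx1* was 1 of these (16.7 FPKM, 11.0 to 14.0 in the others). *Penk* was highest in HET-2 (142) and next highest in MUT-2 (133), and *Tbx2* and *Tbx3* were highest in MUT-1. *Lef1* lay low in MUT-2 (9.41 FPKM, 5.75 to 12.6 in the others). Of the 7 of these markers tested, 6 had a fitted value above 0 in MUT against HET, and 0 passed the adjusted test. Stalk markers summed to 544 FPKM in MUT-2, inside their range of 507 to 619, and *Wfdc2* gave 195 FPKM of that sum. Single stalk markers went both ways in MUT-2, the library with the high *Wnt7b* (13.7). *Aqp3* was highest there (18.9 FPKM, 12.7 to 18.0 in the others), and *Gata3* (18.8) and *Krt18* (60.8) lay in the lower part of their ranges. Within a library, *Wnt7b* was 1.28 to 1.40 times *Wnt9b* in every WT and HET library, 1.35 and 1.37 times in MUT-1 and MUT-3, and 2.00 times in MUT-2. The part of these cell markers in the ligand values was not tested.

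The other 9 Wnt genes were low in these kidneys, 7 of them with a mean under 1 FPKM. *Wnt1* was listed at 0 in all 9 libraries, *Wnt8a* in 8 and *Wnt3a* in 6. *Wnt16* (0.853 to 1.61 FPKM), *Wnt8b* (0.878 to 1.17) and *Wnt2* (0.234 to 1.06) were the highest, at about the level of *Wnt9a*. *Wnt2* had means of 0.399 FPKM in WT, 0.802 in HET and 0.690 in MUT, and its genotypes overlapped. In 3 places a ligand of the kidney neighbours another Wnt gene. *Wnt9b* lies 24.4 kb from *Wnt3* and *Wnt9a* 16.2 kb from *Wnt3a* on chromosome 11, and *Wnt6* lies 6.70 kb from *Wnt10a* on chromosome 1. The neighbours had means of 0.0156, 0.00285 and 0.298 FPKM, each below its partner.

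Genes that make, receive and answer Wnt signals were counted in the same MUT against HET fit, and 0 of the 70 tested passed the adjusted p. Over all loci of that fit 45.9% had a value above 0, 3.68% were higher with an unadjusted p under 0.05, and 5.19% had every MUT library above every HET library. Of the genes that secrete or remove ligands, 5 of 5 tested had values above 0 (median 0.14), among them *Notum*, an extracellular enzyme that strips the lipid from Wnts (6.71 against 6.01 FPKM in HET). Every MUT library of *Notum* (6.21 to 7.48) lay above every WT library (3.68 to 5.30), as for 1.32% of loci. Its log2 difference from WT was 0.45 (SE 0.16, unadjusted p = 0.0211 by limma), and 0 loci passed the adjusted p in that comparison. The receptor list holds receptors and co-receptors, and also R-spondins and other genes that modulate them. Of its genes, 17 of 18 were above 0 (median 0.16), and 2 had an unadjusted p under 0.05. *Lrp5*, a co-receptor for β-catenin signalling, measured 24.7, 21.2 and 18.2 FPKM in MUT against 14.8, 15.48 and 16.5 in HET (log2 difference 0.42, SE 0.12, adjusted p = 0.738 by limma). *Fzd10* differed by 0.31 and *Fzd7* by 0.22, and in these 3 receptor genes every MUT library lay above every HET library. WT overlapped MUT in all 3, with *Lrp5* at 24.2 FPKM in WT-1 and *Fzd7* at 47.4 there against 47.3 in MUT-1. In MUT minus WT 0 of the 18 genes of the receptor list had an unadjusted p under 0.05.

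Of the β-catenin core and its nuclear partners, 20 of 22 were above 0 in MUT (median 0.21), and 7 had an unadjusted p under 0.05. The largest values were those of *Bcl9l*, a β-catenin cofactor (0.58, SE 0.17), and *Dvl3*, a Dishevelled relay protein (0.53, SE 0.17), both with an adjusted p of 0.738 by limma. In both, MUT and HET libraries overlapped. In 4 other core genes every MUT library lay above every HET library. These were *Tle3* (0.29), *Axin2* (0.27), *Axin1* (0.26) and *Tcf7* (0.25), each with an adjusted p of 0.738 by limma, and WT overlapped MUT in all of them. In MUT minus WT 19 of the 22 were above 0 (median 0.13) and 0 had an unadjusted p under 0.05, and in HET minus WT 19 of the 22 were below 0 (median -0.06). The planar polarity genes gave 8 of 9 above 0 (median 0.22), with the cadherins *Celsr1* (0.54) and *Celsr2* (0.46) in front, each with an adjusted p of 0.738 by limma. WT overlapped MUT in both, with *Celsr1* at 12.7 and *Celsr2* at 12.4 FPKM in WT-1 against 13.3 and 12.3 in MUT-1. Their log2 differences were 0.29 and 0.10 in MUT minus WT, and -0.25 and -0.35 in HET minus WT. The list of Wnt inhibitors, secreted except for the membrane protein *Kremen1* (0.31), was divided, with 3 of 7 above 0 (median -0.01). *Dkk1*, which blocks *Lrp5* and *Lrp6*, was at 14.6, 15.0 and 15.4 FPKM in MUT, below its 19.9, 18.3 and 16.1 in HET (-0.25, SE 0.11, adjusted p = 0.738 by limma). All MUT libraries lay below all HET libraries for 4.5% of loci. WT had 18.4, 15.8 and 18.1 FPKM of *Dkk1*, also above every MUT library, as for 1.34% of loci in MUT minus WT. That log2 difference was -0.20 (SE 0.11, unadjusted p = 0.102 by limma).

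Genes of the nephron lineage known to answer *Wnt9b* and *Wnt4* were above 0 in 3 of 9 (median -0.05). Above 0 were *Emx2* (0.15), *Btbd11* (0.09) and *Lhx1*, needed in the renal vesicle (0.04). Below 0 were, among others, *Pax8*, a marker of induced cells (-0.20), *Cited1* (-0.12) and *Fgf8*, a survival signal of induced cells (-0.09). None had an unadjusted p under 0.05. Among the early nephron markers as a whole 2 of 8 were above 0, among nephron progenitor markers 4 of 7, among ureteric tip markers 3 of 8 and among cortical stroma markers 1 of 7. Endothelial markers were above 0 in 5 of 7. These lists overlap in a few genes, and in WT-1 and MUT-1 the receptor list summed to 532 and 549 FPKM against 415 to 513 in the other 7 libraries.

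**Figure D4:**
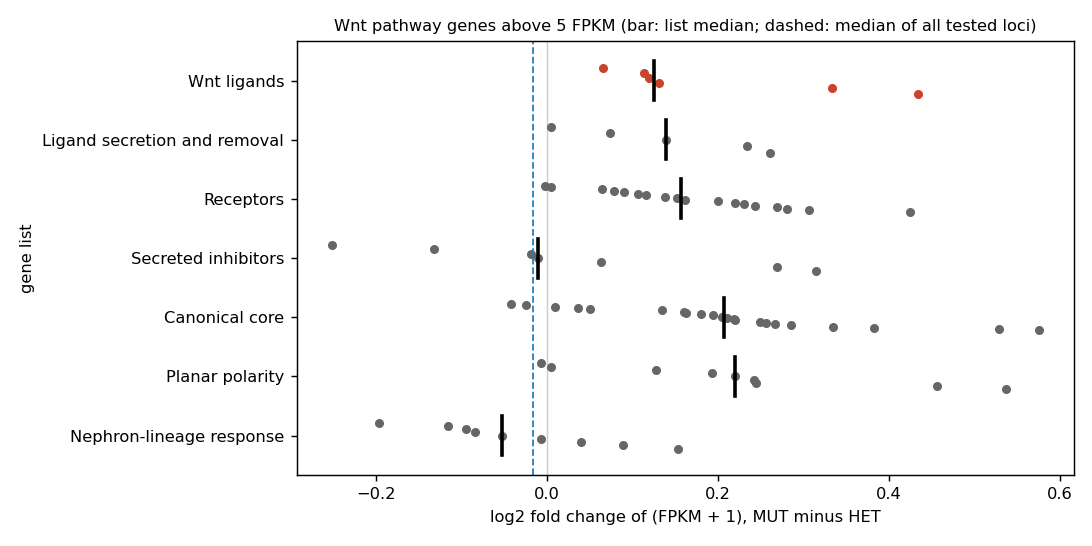
Fitted log2 differences between MUT and HET for the tested genes of each Wnt list, 1 point per gene, with a bar at the list's median and a dashed line at the median of all loci. The medians of the ligands (0.13), the receptor list (0.16), the core (0.21) and the planar polarity genes (0.22) lie right of the dashed line (-0.02). That of the genes answering *Wnt9b* and *Wnt4* (-0.05) lies left of it.

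The loci whose levels ran most like those of each ligand over the 9 libraries were listed. Likeness was Pearson's r of log2(FPKM + 1) over the 9978 loci with a mean of at least 5 FPKM, given as a description because all points share 9 libraries and their depth. The 3 most alike were *Csk*, *Fbln1* and *Vps18* for *Wnt4* (r of 0.98, 0.98 and 0.97), *Chst1*, *Tjp3* and *Polg* for *Wnt9b* (0.99, 0.99 and 0.98), and *H1fx*, *Btbd11* and *Smn1* for *Wnt11* (0.96, 0.93 and 0.93). *Wnt7b* was most like *Pgs1*, *Lmo4* and *Vstm4* (0.96, 0.96 and 0.95), *Wnt5a* like *Zfand5*, *Efcab14* and *Cggbp1* (0.98 each) and *Wnt5b* like *Samd1*, *2510039O18Rik* and the joint locus of *Mir5046* and *Rps6ka4* (0.99, 0.97 and 0.96). Among the 15 pairs of these 6 ligands r ran from -0.25 for *Wnt11* with *Wnt5a* to 0.91 for *Wnt9b* with *Wnt5b*, with a median of 0.59. None of these values was tested.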

How the data were processed

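The libraries, 3 of each of 3 genotypes, were made from whole kidneys at E15.5. Reads were aligned with STAR and FPKM were computed by the authors with Cufflinks and Cuffdiff on mm10, and the deposited table, with FPKM of 24138 loci, was not rescaled. Tool versions are not given in the sources used here, and the deposited averages were not used. FPKM are already scaled, so the reads behind a value are unknown, no counting interval is given, and precision rests on 3 libraries per genotype. The sources do not say whether libraries of a genotype came from separate litters, and p-values measure the spread between these libraries.

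Loci whose mean reached 5 FPKM in at least 1 of the genotypes compared were fitted with limma 3.58.1 under R 4.3.3, on values of log2(FPKM + 1) (lmFit, eBayes with a trend, two-sided, Benjamini-Hochberg adjustment, threshold 0.05), with only the genotypes compared in each fit. Ligands below the minimum were read from the same fit with no minimum. Single ligands were also given an exact permutation test, unadjusted. The steps were tested on simulated data modelled on the MUT and HET libraries, with 50 genes changed at each fold. Limma called 2 of the 50 at 1.2-fold, 16 at 1.5-fold, 43 at 2-fold and 50 at 4-fold, and 3 unchanged loci. Most changes of 1.2-fold and 1.5-fold were thus missed there. GC content came from the longest GENCODE M21 transcript of each gene (96.6% of loci tested in MUT against HET), and promoters from RefSeq on GRCm38.p6. Python 3.11.15 was used for the rest. The ligands and the 17 gene lists were chosen with earlier results of these data known. Genes named are the 10 ligands, the other Wnt genes, *Ntn1*, *Foxd1*, up to 3 genes of each list with the smallest p in each direction, the highest liver and red cell gene, and the 3 loci most like each ligand. *Cdkn1c*, *Alx1*, *Axin1*, *Axin2* and *Tcf7* were named after their values were seen. Alternatives were other pseudocounts, minimums, scalings and fits, each library left out, and, added after the data were seen, a GC correction by a spline of 5 degrees of freedom. Marker sums leave out genes listed at several loci.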

Additional observations from a re-analysis of the deposited data

How the results depend on the processing

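The limits are 3 libraries per genotype, FPKM with unknown depth, and whole-kidney RNA. No ligand passed an adjusted p of 0.05 under any alternative (lowest 0.181, and 0.627 with all libraries kept). With all libraries kept, 5 of 279 ligand values changed sign, all in HET minus WT under the GC correction, at -0.038 for *Wnt9b*, -0.0068 for *Wnt11*, -0.025 for *Wnt7b*, -0.0074 for *Wnt5b* and -0.026 for *Wnt9a*. With 1 library left out, 25 of 180 changed sign. In MUT minus HET the log2 values then ran from -0.0061 to 0.18 for *Wnt11* (lowest without MUT-3), -0.019 to 0.21 for *Wnt4* (lowest without HET-3), -0.0070 to 0.15 for *Wnt2b*, -0.090 to 0.14 for *Wnt6* and -0.0072 to 0.023 for *Wnt7a*. In MUT minus WT they ran from -0.042 to 0.10 for *Wnt2b* and -0.039 to 0.0065 for *Wnt7a*. In HET minus WT they ran from -0.0047 to 0.11 for *Wnt11*, -0.10 to 0.028 for *Wnt2b*, -0.077 to 0.13 for *Wnt5b*, -0.046 to 0.18 for *Wnt6*, -0.050 to 0.13 for *Wnt7b*, -0.027 to 0.10 for *Wnt9a* and -0.071 to 0.15 for *Wnt9b*. The cause was not tested. The number of loci called by limma was 0 in each comparison and 0 under every alternative with all libraries, and ran from 0 to 3 in each comparison with 1 library left out (3 in MUT minus HET without MUT-3, in MUT minus WT without WT-1 and in HET minus WT without WT-2), none of them a ligand. Loci with an unadjusted p under 0.05 numbered 636, 65 and 108, and 400 to 961, 62 to 520 and 84 to 495 under the alternatives with all libraries.

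Over all loci with a mean of at least 5 FPKM, same-numbered libraries did not deviate together as a rule (r of -0.32 to 0.06 for MUT and HET, -0.26 to 0.56 for MUT and WT and -0.19 to 0.17 for HET and WT). Single ligands could still run with the number. *Wnt9b* fell from library 1 to library 3 in every genotype. *Wnt4*, *Wnt7b* and *Wnt5b* fell so in WT and HET but not in MUT, and *Wnt11* and *Wnt5a* did not in WT. The highest value was that of MUT-1 with WT-1 (0.56), while MUT-3 and WT-2, of unlike numbers, had 0.49. With 3 same-numbered pairs per comparison, whether a number marks a shared cross or batch cannot be told. With the replicate number as a block, 0 loci were called in each comparison and no ligand changed its call by adjusted p. In MUT minus HET the unadjusted p of *Wnt7b* was then 0.0404 by limma, against 0.0763 without the block, with an adjusted p of 0.933. Not every library correlated best with its own number.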
